A study of Drosophila melanogaster with 2 samples.

Results

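Broad, a transcription factor of the larval ecdysone response, occupied 1697 sites inside introns of protein-coding genes, out of the 6635 peaks of the authors' optimal set. These sites were chosen by position alone: the summit lay in an intron, in no annotated exon of any gene, and more than 1000 and at most 10000 bp from the nearest start site (TSS) of a protein-coding gene. They made up 25.6% of the optimal set. The chromatin came from whole wandering larvae of the third instar of Drosophila melanogaster, males and females together and of unstated age, of a transgenic line that stably expresses the br-RJ form of Broad with GFP at its C-terminal end. It was sheared by sonication and precipitated with an antibody against GFP. There were 2 biological replicates and 1 group, so no comparison of conditions exists and each replicate's own peak list gives the spread. The antibody targeted only the tagged form, and in whole larvae a site bound in fewer cells and a site bound more weakly in each cell cannot be told apart. Peak lists hold no expression values, so no tissue marker could be checked. The control library was not analysed here.

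Broad proteins share a BTB domain, through which they pair, and differ in the zinc fingers that read DNA. The gene br is among the early genes switched on by the steroid ecdysone, which at the end of larval life starts metamorphosis, and Broad is known for its part in the switch of larval and imaginal tissues to pupal development. Introns of fly genes, and long first introns in particular, are known to carry enhancers, which are short stretches where transcription factors bind and act on a promoter at a distance.

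Sequences at 7 summits are given as examples: the 2 strongest, 3 more from the 8 strongest, the strongest in Eip75B, the gene with most sites, and the strongest in br itself. Each is the 101 bp centred on the summit, on the plus strand of dm6, from the RefSeq copy of the same assembly. Capitals mark any of the 10 short sequences of 6 bases (6-mers) that had the highest ratio of summits to flanks, on either strand.
ush, chr2L:481005-481105: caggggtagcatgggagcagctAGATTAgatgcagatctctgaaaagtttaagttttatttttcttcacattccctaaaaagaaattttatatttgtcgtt
CG11050, chr2L:6612653-6612753: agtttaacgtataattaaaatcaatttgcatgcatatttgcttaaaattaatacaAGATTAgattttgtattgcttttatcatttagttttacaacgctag
CG32772, chrX:4910344-4910444: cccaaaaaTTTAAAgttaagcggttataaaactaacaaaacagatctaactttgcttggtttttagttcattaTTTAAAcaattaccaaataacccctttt
norpA, chrX:4324943-4325043: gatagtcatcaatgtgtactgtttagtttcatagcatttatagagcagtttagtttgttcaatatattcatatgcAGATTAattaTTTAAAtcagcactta
CG3726, chrX:5918883-5918983: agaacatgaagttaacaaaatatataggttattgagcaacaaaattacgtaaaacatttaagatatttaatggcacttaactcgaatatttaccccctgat
Eip75B, chr3L:18009121-18009221: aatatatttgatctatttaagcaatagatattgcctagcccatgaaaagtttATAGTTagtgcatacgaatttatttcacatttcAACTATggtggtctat
br, chrX:1578261-1578361: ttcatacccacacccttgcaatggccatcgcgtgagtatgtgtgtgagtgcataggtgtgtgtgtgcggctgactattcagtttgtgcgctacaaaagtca
The first 6 had a GC content between 22.8% and 33.7%. The 3 of the 8 strongest that are not shown had 37.6% (CG32486), 39.6% (Zw) and 29.7% (Tlk). The window in br had a GC content of 49.5% and none of the marked 6-mers. The window in CG3726, at 27.7% GC, also had none. The windows of CG32772 and norpA each held 2 of the marked stretches, as did that of Eip75B.

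First introns were bound more densely than later ones. Each site was classed over all annotated transcripts of its host gene as lying in an intron that is the first in all of them, the first in some, or a later one in all. There were 718 sites in introns that are first in all transcripts (42.3%), 471 in introns that are first in some (27.8%) and 508 in later introns (29.9%). The intron sequence that meets the same rule, called eligible sequence here, measured 27.2 Mb, of which 32.1%, 20.1% and 47.9% fell in the same classes. The density was 82.2 peaks per Mb in first introns, 86.2 in the class that is first in some transcripts and 39.0 in later introns. The ratio of first to later introns was 2.11. It was 2.14 in the 6635 strongest peaks of replicate 1 and 2.11 in those of replicate 2, so the difference between intron classes was larger than that between replicates. Regions are not replicates and no test was applied to this ratio.

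First introns were the denser ones at each distance from the TSS. Density over all classes fell with distance, from 86.0 peaks per Mb between 1000 and 2000 bp to 60.8 up to 5000 bp and 49.4 up to 10000 bp. Replicate 1 gave 81.7, 57.5 and 49.5 and replicate 2 gave 88.1, 59.7 and 49.5. Within these 3 ranges first introns exceeded later ones by a factor of 2.16, 1.97 and 1.95. The factor was 2.08, 2.02 and 2.08 in replicate 1 and 2.36, 1.96 and 1.78 in replicate 2, above 1 in every case. Beyond 10000 bp, outside the rule, 77 peaks in first and 249 in later introns gave a ratio of 1.91, with 2.01 in replicate 1 and 2.13 in replicate 2. When the intron number was taken from the canonical transcript alone the ratio within the rule was 1.71.

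**Figure D1:**
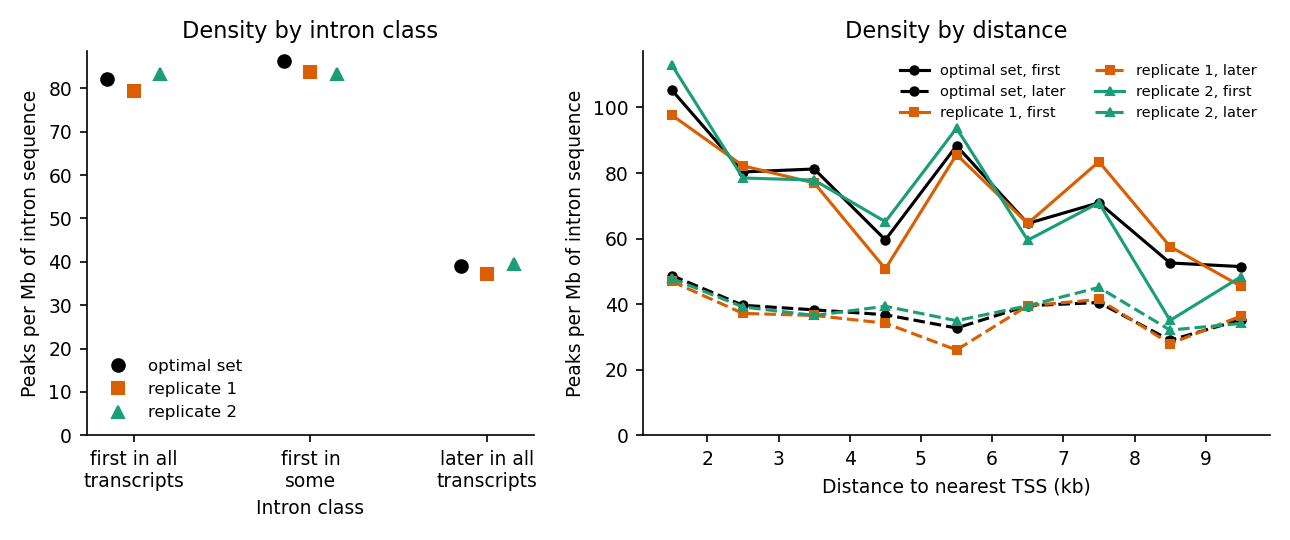
Peaks per Mb of eligible intron sequence, by intron class (left) and by distance to the nearest TSS in kb (right), for the optimal set and for each replicate's 6635 strongest peaks; in the right panel solid lines are introns first in all transcripts and dashed lines are later introns. In all 3 lists first introns lie above later introns, at 82.2 against 39.0 peaks per Mb in the optimal set.

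Compared with the rest of the genome, these introns lay between promoters and other distal sequence. The 62.3 peaks per Mb of eligible intron (60.0 in replicate 1 and 62.4 in replicate 2) compare with 48.2 over the whole of the arms. Sequence within 500 bp of a TSS held 176 per Mb, intergenic sequence at the same distances held 38.0, and introns beyond 10000 bp held 23.8. The replicates gave 185 and 175 for promoters, 35.9 and 38.5 for intergenic sequence and 22.4 and 23.8 for far introns, so the order was the same in both. Densities of the intronic sites on the 5 large arms ranged from 58.9 to 66.6 per Mb, and chromosome 4, with 0.281 Mb of eligible sequence, had 0.

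Position and intron length were taken from the shortest annotated intron that holds the summit, of whichever host gene. The median position of the sites was 0.392 of the intron length from its upstream end. The median distance to the nearest TSS was 3089 bp, with quartiles of 1786 and 5434 bp. The median distance was 2656.5 bp for first introns and 3956.5 bp for later ones. The host introns had a median length of 9401 bp. The nearest TSS belonged to the host gene itself for 1368 sites (80.6%), and 1057 of these (77.3%) lay downstream of it. The nearest TSS was the host's for 87.0% of sites in first introns and for 64.2% in later introns. The rule itself limits distance to a TSS, and these measures were not set against eligible sequence. Position, intron length and nearest gene thus describe the sites as selected. The interval of 72 peaks (4.24%) reached into an exon although the summit did not. Sites were often close together: 453 (26.7%) had another of the 1697 summits within 1000 bp.

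The signal value that the authors deposited for each peak, whose scale is not stated, ranks peaks within a list. It ran up to 3635 over the intronic sites, with a median of 134 and quartiles of 101 and 210, the lower limit being that of the optimal set. The median was 137 over the whole optimal set, 146 for promoter peaks, 130 for intergenic peaks at the same distances and 124 for intronic peaks beyond 10000 bp. Strong peaks were less frequent than at promoters: 82 of the sites (4.83%) reached 500, against 7.66% of promoter peaks and 6.10% of all peaks. Of the 100 strongest peaks of the optimal set 20 were intronic sites, and of the 1000 strongest 225 were. The higher density of first introns was not matched by a higher signal, with medians of 134 in first introns, 134 in the mixed class and 133 in later introns. In the replicates' lists these medians were 70.3, 70.5 and 71.5 for replicate 1 and 67.6, 70.2 and 69.0 for replicate 2. At the edges of the rule, the median was 185 for 84 intronic peaks between 900 and 1000 bp and 143 for 76 between 1000 and 1100 bp. It was 125 for 65 peaks between 9000 and 10000 bp and 121 for 65 peaks in the next 1000 bp.

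Nearly all sites were found in both replicates, as were nearly all peaks of the optimal set. That set had itself been thresholded on agreement between the replicates, by the irreproducible discovery rate, so this share is no independent test of the sites. A summit within 100 bp was present in both replicates' lists for 1584 sites (93.3%), in replicate 1 only for 53, in replicate 2 only for 57 and in neither for 3. Over all optimal peaks the share was 93.2%. Within 50 bp it was 72.0% for the sites and 73.7% for all optimal peaks. Over the 1584 the signals of the replicates had a Spearman correlation of 0.755 and a Pearson correlation of the log2 values of 0.820, both across sites of the same pair of libraries and given without p-values. The log2 ratio of the replicates had an SD of 0.56, and 93.1% of sites were within 2-fold. The scatter was widest among weak sites, as the plot of replicate signals shows.

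**Figure D2:**
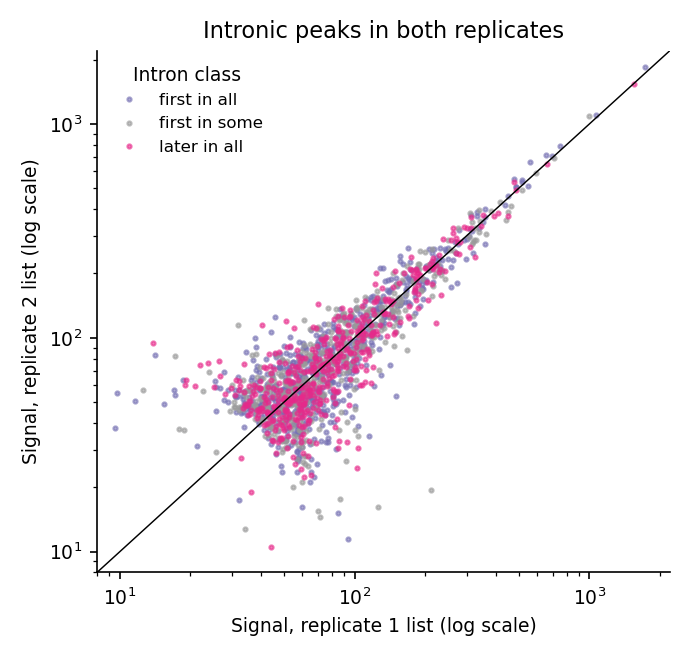
Signal in replicate 2 against signal in replicate 1 for the 1584 intronic sites with a summit within 100 bp in both full lists of 30000 peaks. Both axes are logarithmic and in the authors' unstated unit. Each point is a site, coloured by intron class, and the line marks equality. Points close up on the line as the signal rises, and the 3 classes overlap over the whole range.

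The strongest intronic site of the series, also the strongest peak of all, lay in the first intron of ush, a zinc finger cofactor of GATA factors. Its signal was 3635 in the optimal set, 1730 in replicate 1 and 1852 in replicate 2. The summit was 1367 bp from the TSS of cbt, which encodes another zinc finger factor, so its host is not the nearest gene. The second lay in CG11050, with 3021 in the optimal set, 1556 in replicate 1 and 1530 in replicate 2, in an intron of only 140 bp at 1016 bp from the gene's TSS. The third was in the first intron of CG32486, with 2141, 1063 and 1100, but was 5718 bp from the TSS of CG16753. CG32772 followed with 2074, 995 and 1091. The 4 stood above the other intronic sites, none of which passed 1542.

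The next sites lay in genes of varied function. Zw, glucose-6-phosphate dehydrogenase of the pentose phosphate pathway, had a site of 1542 in its first intron, with 747 in replicate 1 and 792 in replicate 2. In the kinase gene Tlk the site had 1359, with 707 and 695. The phospholipase C gene norpA, known from phototransduction, had 1356, with 655 and 715. Raf, the kinase that links Ras to the MAP kinase cascade, had 1299 in its second intron, with 658 and 647, at chrX:2300492-2300906. The cyclic GMP-dependent kinase gene for had 1228, with 558 and 667. Of the ecdysone-induced nuclear receptor genes, Eip78C had 1144, with 592 and 590, although the nearest TSS, at 4121 bp, was that of CG43218. Hr4 had 990, with 515 and 492, at 9973 bp from its own TSS. The BMP type II receptor gene wit had 962, with 486 and 509, and Trl, which encodes the GAGA factor, a BTB protein itself, had 959, with 485 and 494. Of the 20 strongest sites the remaining ones were in CG3726, CG12769, CG9837, babos, upSET, CG9328 and an intron shared by Mi-2 and Su(Tpl), with signals from 974 to 1345. All 20 had a summit in both replicates, with a ratio of replicate 1 to replicate 2 between 0.837 and 1.08. In the 20, 12 were in first introns, 4 in introns first in some transcripts and 4 in later ones, and the nearest TSS was the host's in 17.

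The 1697 sites fell in 858 host genes, which is 12.3% of the 6990 protein-coding genes that have eligible intron sequence. There was 1 site in 461 hosts, there were 2 in 183 and 3 or more in 214. The 65 genes with 5 or more held 454 sites (26.8%). Sites that lay in introns of more than 1 gene numbered 89. Host share rose with eligible length, from 1.63% of genes with up to 2 kb to 18.7%, 31.3%, 40.4% and 56.3% for genes of up to 5, up to 10, up to 20 and more than 20 kb. The density per Mb did not rise steadily with length, at 41.5, 78.8, 69.6, 65.7 and 57.1 in the same classes.

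Eip75B, an early ecdysone-induced nuclear receptor, had most sites, 19 in 64.9 kb of eligible sequence, or 293 per Mb. The gene lies on the minus strand at chr3L:17950953-18064696. Its strongest site reached 409, with 188 in replicate 1 and 210 in replicate 2, and 12 of the 19 were in introns that are first in some transcripts. The ecdysone receptor gene EcR had 10, all in later introns, with a maximum of 343, 186 in replicate 1 and 160 in replicate 2. Next to Eip75B in number came shn, a zinc finger factor of Dpp signalling, with 18 sites (467 per Mb, maximum 712). The gene of the Dpp type I receptor, tkv, had 12, of which 10 were in the first intron, with a maximum of 585 at chr2L:5254121-5254481. CG1677 had 16 in 83.2 kb, all in later introns. The Notch co-activator mam had 12, of which 11 were in later introns, and Mnt, a partner of Max, had 12 in 21.3 kb. Of the other genes with many sites, ush had 11, Raf had 11, all in its later introns, and tara, a transcriptional co-regulator, had 11, all in its first intron. The phosphatase gene Ptp61F had 9 and tna also had 9. Hosts with many sites thus differed in intron class: those of tara, tna and tkv were in first introns and those of EcR, Raf, CG1677 and mam in later ones.

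**Figure D3:**
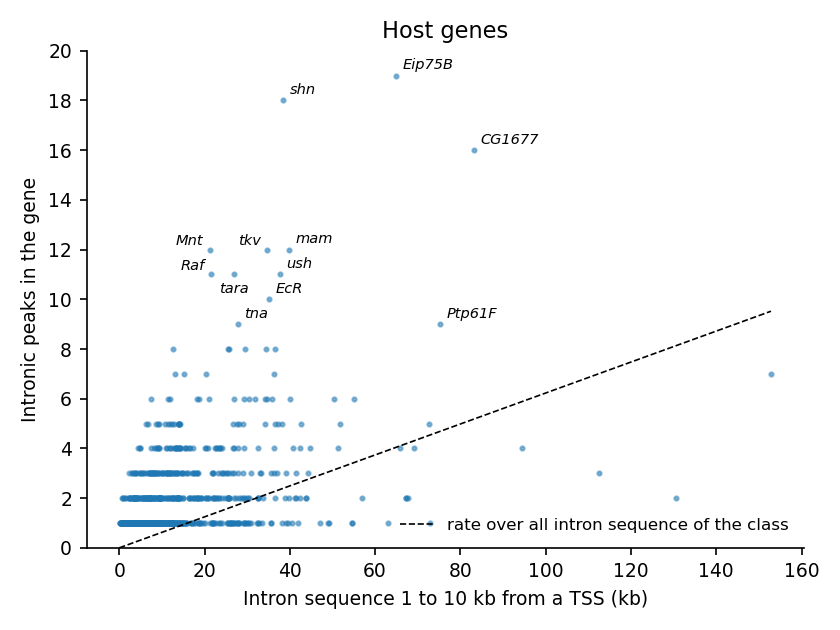
Number of intronic sites in each of the 858 host genes against the eligible intron sequence of the gene in kb; the dashed line is the rate over all eligible sequence, 62.3 per Mb, and the 12 genes with most sites are named. All 12 lie above the line, Eip75B with 19 sites and shn with 18.

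In br itself 5 sites were found, with signals of 246, 200, 167, 123 and 104. All 5 also lay in introns of Mur2B, so the host is ambiguous. The strongest had 120 in replicate 2 and no summit within 100 bp in replicate 1. The second had 105 and 93.7 in the replicates, the third 95.4 and 74.5, and the fourth 67.1 and 64.7. The weakest had 125 in replicate 1 and 16.1 in replicate 2. Its interval, chrX:1578296-1578725, overlaps that of the strongest, chrX:1578249-1578417. Matching of summits within 100 bp thus differed between the replicates here. Whether these 2 peaks are 1 bound stretch with shifted summits was not tested.

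Host genes had a peak at their own promoter more often than other genes did. A peak within 500 bp of an own TSS was present in 470 of 858 hosts (54.8%) and in 1446 of 6132 genes that had eligible sequence but no intronic site (23.6%). In replicate 1 the shares were 55.9% and 25.3%, and in replicate 2 they were 53.2% and 24.2%. Genes with more start sites have more chances of a promoter peak, so the shares were also taken by their number. With 1 start site they were 39.8% and 17.7%, with 2 or 3 they were 56.7% and 32.9%, and with 4 or more 81.2% and 50.6%. They differed in the same direction in all 5 classes of eligible length, where hosts ranged from 49.3% to 58.2% and other genes from 19.5% to 27.3%. The remaining 388 hosts had an intronic site without a promoter peak, among them Raf, Hr4, fz and fru.

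Ecdysone response genes and genes of growth factor pathways had a high density of sites, and genes of neuronal function a low one. These lists were chosen with earlier results of these data known, so their counts are a description. Because long introns host more sites, each count is given with its density, to be read against 12.3% of genes and 62.3 peaks per Mb over all eligible sequence. Of 21 ecdysone response genes with eligible sequence 12 were hosts (57.1%), with 67 sites or 178 per Mb. Of the 67 sites 19 were in Eip75B and 10 in EcR. The 5 in br, which are shared with Mur2B, were counted both here and in the BTB list. There were 13 hosts in each replicate's list. The strongest site of a host had a median signal of 330 in this list, against 168 over all hosts. Among these genes Hr4, another ecdysone-induced nuclear receptor, had 6 sites, Eip78C had 4 and the cyclin-dependent kinase gene Eip63E had 2, of which the stronger had 596 (277 in replicate 1 and 325 in replicate 2). The list labelled BTB zinc finger factors also holds related genes of other structure, and br itself. In it 12 of 17 were hosts (70.6%), with 30 sites or 110 per Mb, and with 10 and 11 hosts in the replicates. Of the 30 sites 8 were in psq and 5 in br. The sex determination factor gene fru had 4 sites, up to 641 (362 and 305), and ab had 2, up to 259 (146 and 114).

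In the signalling pathways the highest density belonged to the Dpp pathway, with 7 of 14 genes as hosts and 260 sites per Mb. It rested largely on 2 genes, as 18 of the 41 sites were in shn and 12 in tkv. The strongest sites of the 7 hosts had a median of 383, and all 7 had one above the median of the optimal set. Besides shn and tkv, the inhibitory Smad gene Dad had 4 sites, up to 839 (451 and 371), and dpp, the BMP ligand, had 2, up to 383 (161 and 221). Of 20 EGFR pathway genes 12 were hosts, with 208 sites per Mb. The receptor gene Egfr had 4, all in its first intron, up to 461 (229 and 233). The ETS repressor gene aop had 7, up to 684 (309 and 384), and edl, which encodes an antagonist of that repressor, had 2, up to 724 (360 and 368). Wnt and Hedgehog genes had 13 hosts of 22 and 153 sites per Mb. The Wnt receptor genes fz and fz2 had 3 and 6 sites, the co-receptor gene arr had 4 and the glypican gene dlp had 4, with maxima of 525, 280, 388 and 463. In the Notch list 7 of 15 genes were hosts, at 137 per Mb, of which 2 had a site above the median signal of the optimal set. Of the 20 Notch sites 12 were in mam. The ubiquitin ligase gene neur had 1 site of 766 (359 and 400), numb had 3 of at most 128, and the ligand gene Ser had 1 of 105. In the Hippo list 5 of 15 were hosts, at 135 per Mb. They were ex at 611 (292 and 329), dachs at 280, kibra at 138, crb at 130 and wts at 99.2.

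Among the tissue and structure lists, those of disc eversion, fat body and hemocytes had densities above that of all eligible sequence. Genes of actomyosin and disc eversion had 11 hosts of 24 and 155 sites per Mb. The phosphatase gene puc, a feedback inhibitor of JNK signalling, had 6 sites up to 581 (325 and 240). The kinase gene msn had 3 up to 446 (213 and 228), the cofilin gene tsr had 1 of 391 in 0.757 kb of eligible sequence, and kay, the fly Fos, had 5 up to 304 (135 and 184). Of the other JNK cascade genes of the list, bsk, hep and slpr had eligible sequence and 0 sites, and Jra had no eligible sequence. Fat body and lipid genes had 7 of 14 and 161 per Mb, led by the perilipin gene Lsd-2 at 345 (196 and 152), then mdy at 189, bmm, a triglyceride lipase, at 184 and Hnf4 at 178. Hemocyte and blood genes had 3 of 17 and 114 per Mb, namely ush, zfh1 at 418 and Pvr at 122, and 11 of their 14 sites were in ush.

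The remaining lists had a density near or under that of all eligible sequence. Neuroblast temporal factors had 8 of 17 and 71.4 per Mb, with grh at 663 (317 and 348), Myc at 470, Syp at 369 and brat, with 6 sites, also at 369. Imaginal disc patterning genes had 10 of 40 and 59.8 per Mb, where besides ush the leading ones were caup at 222, Bx at 201 and al at 197. Axon guidance genes had 9 of 23 and 57.2 per Mb, with trio at 620 (302 and 328), sli at 295, fra at 236 and Fas3, with 6 sites, at 162. Muscle structure genes had 5 of 22 and 43.5 per Mb, namely Mef2 at 203, if at 193, Zasp52 at 156, Tm1 at 108 and how at 96.1. In the Irre cell recognition module kirre had 7 sites in 153 kb, and rst shared 1 of them, giving 35.0 per Mb. Of the 24 neuronal function genes, with 308 kb of eligible sequence, 1 was a host, giving 3.25 per Mb. It was the potassium channel gene Shal, with 1 site of 243 (131 and 113). Replicate 1's list had 3 hosts there and replicate 2's had 1. Of the cytosolic ribosomal protein genes 0 of 9 were hosts, in 2.14 kb of eligible sequence in all, too little to show a difference.

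**Figure D4:**
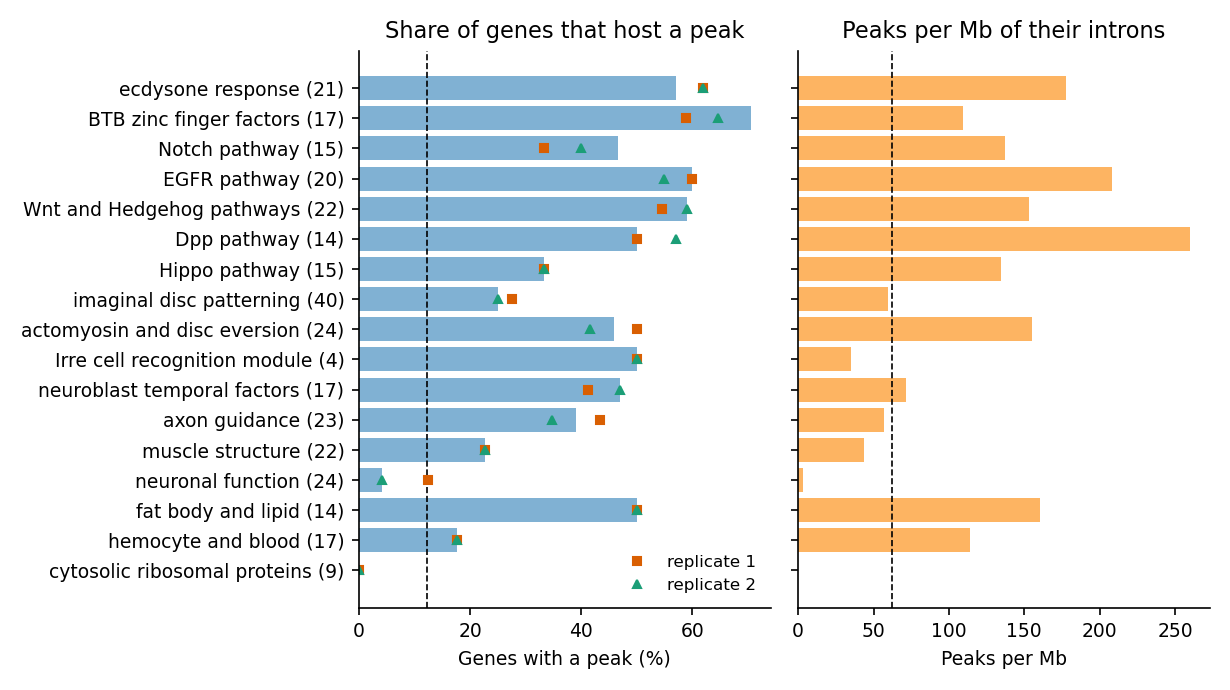
Left, share of the genes with eligible intron sequence in each list that host an intronic site, in percent, as bars for the optimal set and symbols for the replicates; right, sites per Mb of the list's eligible sequence. The number of such genes is in parentheses, dashed lines mark all genes (12.3% and 62.3 per Mb), and the Dpp list is highest on the right at 260 while the neuronal list stands at 3.25.

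The DNA at the summits was rich in A and T. The 101-bp windows at the 1697 summits had a mean GC content of 36.2%, against 44.4% in windows centred 250 bp to the higher-coordinate side and 44.0% on the other side. All eligible intron sequence had a mean of 40.0%, over 252983 windows of the same width. The 82 sites with a signal of at least 500 had a mean of 31.5%. First and later introns did not differ by much, at 36.1% and 36.0%, and promoter summits had 39.7%.

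Of all 2080 strand-collapsed 6-mers, 352 (16.9%) were present in more summit windows than flanks and 470 (22.6%) in fewer, at an adjusted p of 0.05. The test was the exact two-sided sign test over sites with Benjamini-Hochberg adjustment over the 2080, which treats neighbouring sites as independent. With flanks centred 500 bp away 317 were called in both directions together. The calls went with base composition. All 36 6-mers without G or C were higher, and none of the 36 made of G and C alone was, while 25 of those were lower. The median ratio of summit to flank windows fell from 1.81 without G or C to 0.402 for 6-mers of G and C alone.

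**Figure D5:**
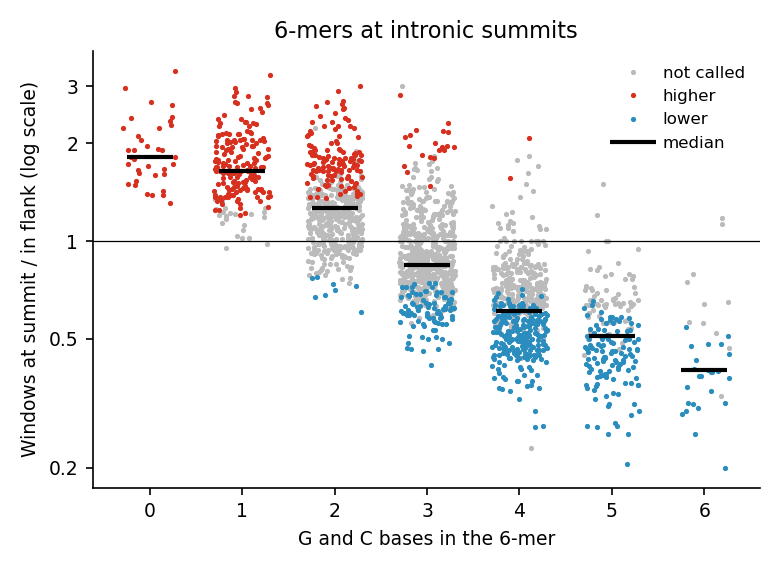
Ratio of summit windows to flank windows that hold each of the 2080 6-mers (logarithmic axis) against its number of G and C bases, with random sideways scatter; red and blue points passed an adjusted p of 0.05 in the exact sign test, and bars are medians. The median falls from 1.81 without G or C to 0.402 with 6.

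The highest ratio was that of ATATTA, present at 278 summits (16.4%) and in 83 flanks (4.89%), a ratio of 3.35 with an adjusted p of 3.0e-25 by the exact sign test. It occurs in 9.93% of windows of eligible sequence, and against flanks 500 bp away its ratio was 2.12. Next was AACTAT, in 9.19% of summits and 2.83% of flanks, with a ratio of 3.25 and an adjusted p of 4.2e-13. TACCTA had a ratio of 3.0, TTTAAA had 2.97 (16.8% against 5.66%), TAAGTA had 2.95 and TACTGA had 2.89. AGTATA followed with 2.87, ACTAGG with 2.82 (31 summits against 11 flanks), ACTTAT with 2.80 and AGATTA with 2.79. Against flanks 500 bp away all 10 ratios were lower, the next highest being 1.89 for TTTAAA, and 3 were no longer called: AGTATA at 1.47, ACTAGG at 1.72 and ACTTAT at 1.27, with adjusted p-values of 0.058, 0.24 and 0.20 in the same exact sign test. In replicate 2's list alone AGTATA had 1.85, and in replicate 1's list alone TAAGTA had 1.90. These 10 were chosen on the same summits and flanks, so what follows is a description. At least 1 of the 10 was present at 903 summits (53.2%), in 21.6% of flanks, in 37.8% of windows of eligible sequence and at 55 of the 82 sites with a signal of at least 500 (67.1%). The lowest ratios were 0.20 for CGGCCG, 0.205 for CGACCC, 0.255 for AGGCCG, 0.255 for GGAGCC and 0.255 for CCGGCC. They rest on few windows. In replicate 1's list alone AGGCCG had 0.615 and CGGCCG 0.294, neither of them called (adjusted p of 0.15 and 0.058 in the exact sign test), while GGAGCC had 0.383 and CCGGCC 0.410 and were called. Against flanks 500 bp away CGACCC had 0.50 and AGGCCG 0.464, neither called, with adjusted p-values of 0.34 and 0.12.

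The listed motifs were mostly sequences known as sites of fly factors. GATAAG, the GATA factor site, was present in 8.31% of summit windows and 4.42% of flanks. Its ratio was 1.88 with an adjusted p of 3.3e-05 in the exact sign test. The median for its composition was 1.26. It was present at 3 of the 82 strongest sites (3.66%) and in 4.53% of windows of eligible sequence. AAACTA, listed without a named factor, was present in 5.48% of flanks and 11.7% of summits, and at 20.7% of the strongest sites. Its ratio was 2.14 with an adjusted p of 2.7e-09 in the same test. CTATTA, also without a named factor, had 6.42% of summits against 2.77% of flanks, and 11.0% at the strongest sites. Its ratio was 2.32 with an adjusted p of 1.0e-05 in the same test. Both were above the 1.64 of their composition, and they occur in 8.61% and 4.54% of windows of eligible sequence. Over summits of the whole optimal set the shares were 7.08% for GATAAG, 10.9% for AAACTA and 5.77% for CTATTA, not far below those of the sites. The forkhead-like core TAAACA had a ratio of 1.76, against 1.64 for its composition. The homeodomain core TAATTA had 1.60, under the 1.81 of 6-mers without G or C. The shares at summits were 15.4% and 7.37%, against 10.7% and 8.08% of windows of eligible sequence, so TAATTA was less frequent at summits than in eligible sequence as a whole. Against flanks 500 bp away the adjusted p of TAATTA was 0.53 and that of GATAAG was 0.0099, with ratios of 1.15 and 1.57.

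Other listed motifs were lower at summits or not called. The GAGA factor site GAGAGA was present in 4.30% of summits and 7.01% of flanks, a ratio of 0.613 with an adjusted p of 0.0031 in the exact sign test. It occurs in 3.84% of windows of eligible sequence, less often than at summits, so its direction depends on the background. Over summits of the whole optimal set GAGAGA had 5.4%, and at promoter summits 6.4%. The CA repeat CACACA had 0.721 and the Grainyhead core AACCGG had 0.543, with 9.43% and 1.47% of summits against 9.91% and 1.89% of windows of eligible sequence. The median for composition was 0.843 for GAGAGA and CACACA and 0.610 for AACCGG. None of these 3 passed against flanks 500 bp away, with adjusted p-values of 0.17, 0.29 and 0.12 in the same exact sign test, and AACCGG did not pass in either replicate alone, with 0.13 and 0.33. The Zelda site CAGGTA had 0.614, the TEAD site CATTCC had 0.707 and the Runx-type site TGTGGT had 0.941, with adjusted p-values of 0.12, 0.10 and 0.87. Against flanks 500 bp away CATTCC had 0.611 and passed, with an adjusted p of 0.025 in the exact sign test. The E-box CACGTG was present in 13 windows of each kind and the nuclear receptor half-site AGGTCA in 40 of each. These equal counts lay above the composition medians of 0.610 and 0.843, and neither motif was called. The AP-1 site TGANTCA was at 58 summits and in 52 flanks. The DREF site TATCGATA, known from promoters of housekeeping genes, was at 1 intronic summit and at 84 promoter summits (3.11%). No match says only that these letters were not in the window.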

How the data were processed

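Broad ChIP-seq was measured in 2 biological replicates of 1 group, numbered as in the labels. The authors deposited dm6 peak lists for each replicate and for both pooled, and an optimal set, and the signal of each peak is the authors' value, whose scale is not stated. Per the file headers and accompanying notes the lists were prepared for the irreproducible discovery rate step. The optimal set, thresholded on that rate, held 6635 peaks. Except where summits were matched, each replicate's list was reduced to as many of its strongest peaks. Summits were matched in the full replicate lists of 30000 peaks each. Aligner, caller and cutoffs were not given in the sources used here. Lists carry no read counts, which leaves depth unknown and allows no counting interval. The dm3 lists were not used.

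Summits were placed on Ensembl release 115 with Python 3.11.15, numpy 2.4.6, pandas 2.3.3, scipy 1.17.1 and statsmodels 0.14.6, and coordinates are 1-based on dm6. Sites counted as shared within 100 bp. The 6-mer test used 50 bp to either side of the summit. On simulated windows it recovered 5 of 5 6-mers planted in a share of 0.1 of windows and called 0 of 2080 where none was planted, with base composition equal in both windows, unlike the real ones. Of the listed symbols 9 were matched through older names and 1 to no protein-coding gene.

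Members and lists were chosen with earlier results of these data known. Named are the 20 strongest sites, the 12 hosts with most sites, up to 4 hosts per list with the highest signal (all where fewer than 6), br, the 10 highest and 5 lowest 6-mers and all listed motifs. Alternatives covered each replicate alone, stricter thresholds, overlap, annotation, flanks and windows.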

Additional observations from a re-analysis of the deposited data

How the results depend on the processing

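With 1 group no paired analysis was possible because there is nothing to pair. Signal scale, depth and caller are unknown, 6-mer calls follow base composition, and regions are not replicates. Leaving out a replicate gave a first-intron share of 42.4 to 42.8%, a density ratio of 2.11 to 2.14, a median signal of 68.8 to 70.7 (on the replicates' own scale) and 1 to 3 neuronal hosts. Above the median signal there were 809 sites in 522 hosts with a median of 217, and hosts numbered 2 in the Notch list, 3 in Hippo, 5 in disc patterning, 1 in Irre, 5 in neuroblast, 3 in muscle and 4 in fat body. With summits within 100 or 50 bp in both replicates the ratio was 2.15 and 2.18 and the median signal 136 and 145. Canonical start sites gave a share of 47.0%, a ratio of 2.18 and a median of 135. The canonical intron number gave 43.3% and 1.71. Chosen after seeing the data, bins of 1000 bp gave a ratio of 2.01 and single host genes a share of 42.8%. The 822 6-mer calls became 317 with the flank 500 bp away, 418 with 25 bp to either side, and 589 to 826 otherwise. Of the 6-mers among the listed motifs 8 were called, and 5 with the flank 500 bp away. Among the named 6-mers the only ratio to cross 1 was that of TGTGGT, uncalled throughout, at 1.28 without replicate 1, 1.02 without replicate 2 and 1.03 with 25 bp to either side. AGGTCA, with a ratio of 1, ranged from 0.80 to 1.28, and CACGTG, also with 1, went down to 0.476. Calls were also lost above the median signal for ACTAGG (adjusted p of 0.088), for CGGCCG (0.16) and for AACCGG (0.125), and with 25 bp to either side for ACTAGG (0.052), for CGACCC (0.052) and for AACCGG (0.23), all by the exact sign test. The cause was not tested.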
